A study of Arabidopsis thaliana with 4 samples.

Results

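CHS, CHIL and DFR act in the core of flavonoid synthesis, and each was read here by 1 probe set of an Affymetrix array. They are 3 of 13351 genes that could be read singly on the array, which holds 22746 probe sets beside its controls. DFR (AT5G42800) and CHIL (AT5G05270) were taken by name from the platform's probe annotation, where each had a single probe set. The annotation leaves the probe set of CHS (AT5G13930, also called TT4) unnamed, and its identity was taken from the rule that chose these genes. All 3 genes lie on chromosome 5. The glycosyltransferases that attach sugars to finished flavonoids were not counted as members.

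Total RNA came from 7-day-old Arabidopsis thaliana seedlings, grown at 20 °C with 16 h of light and 8 h of dark and then kept at 5 °C for 6 h in the light phase. There were 2 experiments. In one, the insertion line sfr6-3 (WiscDsLox504A08) was treated beside wild-type Col-0, and in the other the insertion line sfr6-2 (SALK_048091) beside its own Col-0. Each line was measured on 1 array per experiment, 4 arrays in all, and nothing states how many plants a sample held. The genotypes could not be checked on SFR6, which has no single-gene probe set in the annotation. The product of SFR6 belongs to Mediator, which passes signals from transcription factors to RNA polymerase II. The design asks how transcript levels of seedlings in the cold differ when SFR6 is disrupted. No seedling kept at growth temperature was measured, so a changed response to cold and a changed level before it cannot be told apart.

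Flavonoids are plant phenolics that screen ultraviolet light and colour tissues, and in Arabidopsis seedlings their synthesis is known to respond to light, sugar and cold. Chalcone synthase (CHS) makes the first flavonoid skeleton from a phenylpropanoid precursor and malonyl-CoA. The chalcone isomerase-like protein (CHIL) has no isomerase activity of its own and improves the yield of the CHS step. Dihydroflavonol 4-reductase (DFR) acts later, where anthocyanins and proanthocyanidins branch off from flavonols. In Arabidopsis, MYB11, MYB12 and MYB111 activate early genes such as CHS, while complexes of MYB, bHLH and WD40 proteins activate DFR.

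The values are log2 expression values from MAS5, the Affymetrix algorithm that combines the probes of a probe set. Each array had been scaled to a trimmed mean of 500 on the linear scale. A probe set was kept for testing when its mean log2 value reached 6.46, the 40th percentile, which left 13648. All 3 members were kept. Among the probe sets kept, the median log2 ratio of mutant to Col-0 was 0.12 in sfr6-3 and 0.076 in sfr6-2, so a ratio of 0 lies slightly below the middle of either comparison. Of the markers of green seedling tissue, 5 of 7 had a named probe set and passed the filter, and RCA, the activase of Rubisco, lay between 14.74 and 14.95 on the 4 arrays. None of the 5 passed the limma test of both mutants against Col-0, with a median mean log2 ratio of -0.47. PRK, a Calvin cycle kinase gene, had ratios of -0.48 in sfr6-3 and -0.47 in sfr6-2, the light-harvesting gene LHCB4.2 -0.98 and -0.27, LHCB4.3 -1.14 and 0.095, LHCB4.1 -0.087 and 0.010, and RCA -0.096 and 0.054. Of 12 embryo and seed markers 3 had a probe set. The log2 of their summed linear levels, which mostly follows the brightest marker, was 8.57 in Col-0 and 7.72 in sfr6-3. It was 6.08 in the other Col-0 array and 8.84 in sfr6-2, with no test. Of these 3, M17 was lower in sfr6-3 than in its Col-0, by a ratio of -1.55, while AT3G01570 at 0.62 and BAN at 2.61 were higher, and all 3 were higher in sfr6-2, at 2.81, 2.81 and 0.46. These ratios are inexact, since BAN was under the filter level on all 4 arrays and AT3G01570 on all but that of sfr6-2. M17 was under it in the Col-0 of the sfr6-2 experiment.

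None of the 3 core genes passed the combined test of sfr6 seedlings against Col-0, and their ratios were small. Their mean log2 ratios were -0.021 for CHS, -0.22 for CHIL and 0.11 for DFR. This test was a limma model over all 13648 probe sets kept, with the experiment as a block, both alleles as replicates of 1 mutant effect, and Benjamini-Hochberg adjustment at 0.05. It called 2.94% of probe sets lower and 0.879% higher, against 0 of 3 members. An unadjusted limma p under 0.05 was reached by 2319 of the 13648 probe sets and by 0 of 3 members. None of the 3 reached 2-fold in either allele, a size that 7.88% of probe sets reached in sfr6-3 and 5.42% in sfr6-2 in one direction or the other. A p-value here rests on 1 residual degree of freedom per gene and on variance pooled over genes, and it measures the spread between these arrays only.

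CHS stood at a log2 value of 12.39 on the Col-0 array and 12.41 on the mutant array of the sfr6-3 experiment, and at 12.32 and 12.25 on those of the sfr6-2 experiment. The 4 arrays lay within 0.16 of each other, or 1.12-fold, and only 2.02% of probe sets kept had a smaller range. The mutant was slightly above its Col-0 in the first experiment and slightly below it in the second. The log2 ratio was 0.025 in sfr6-3 and -0.066 in sfr6-2, and the Col-0 arrays themselves differed by 0.072. In the combined fit the mean ratio was -0.021 (SE 0.18, 95% interval -0.42 to 0.38, limma adjusted p = 0.972). On the linear scale that interval runs from 0.749 to 1.298 times the Col-0 level, so changes of 1.5-fold or more in the shared effect lie outside it in both directions. In absolute size, 4.62% of probe sets had a smaller mean ratio than CHS.

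For CHIL the log2 value was 10.69 in Col-0 and 10.65 in its partner sfr6-3, then 10.35 for the other Col-0 array and 9.95 for sfr6-2. The sfr6-2 array was the lowest of the 4, and both arrays of its experiment lay below both arrays of the other. The ratio was -0.035 in sfr6-3, or 0.976 times Col-0, and -0.40 in sfr6-2, or 0.760 times Col-0. The Col-0 arrays themselves differed by 0.34, and 14.2% of probe sets kept had a lower ratio in sfr6-2. The mean ratio was -0.22 (SE 0.21, 95% interval -0.67 to 0.24, limma adjusted p = 0.647). The interval spans 0.628 to 1.18 times the Col-0 level. It leaves out a 2-fold change in either direction and holds a 1.5-fold decrease. The ratios of the alleles differed by 0.36, close to the median gap of 0.34 over all probe sets kept. That difference between alleles was not tested, since each allele was measured once. In whole seedlings, less RNA per cell and fewer cells that express a gene cannot be told apart.

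The DFR probe set read 7.48 in the Col-0 seedlings and 7.64 in the mutant of the sfr6-3 experiment, against 6.88 and 6.94 in the sfr6-2 experiment. Each mutant was a little above its own Col-0, by 0.16 (sfr6-3) or 0.056 (sfr6-2), whereas 0.60 separated the Col-0 arrays. The Col-0 difference, 1.51-fold, is therefore larger than either mutant ratio. The mean ratio was 0.11 (SE 0.29, 95% interval -0.53 to 0.75, limma adjusted p = 0.893), or 0.691 to 1.68 times the Col-0 level. A 2-fold change lies outside the interval and a 1.5-fold increase inside it. DFR has the widest interval of the 3 genes, and its lowest array was 0.43 above the filter level. Taken relative to the median probe set of each comparison, DFR stood at 0.044 in sfr6-3 and -0.020 in sfr6-2. By the same measure CHS stood at -0.091 and -0.14, and CHIL at -0.15 and -0.47. The sign of the mean ratio turned for CHS, which read 0.064 after quantile normalization, and for DFR, which read -0.032 after cyclic loess normalization. CHIL stayed between -0.29 and -0.21 in the 10 alternatives that kept every array. It read 0.13 with the sfr6-2 array left out, a fit without the block that sets sfr6-3 against both Col-0 arrays. CHS and DFR have no settled direction, and the 95% interval of CHIL holds both directions.

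**Figure D1:**
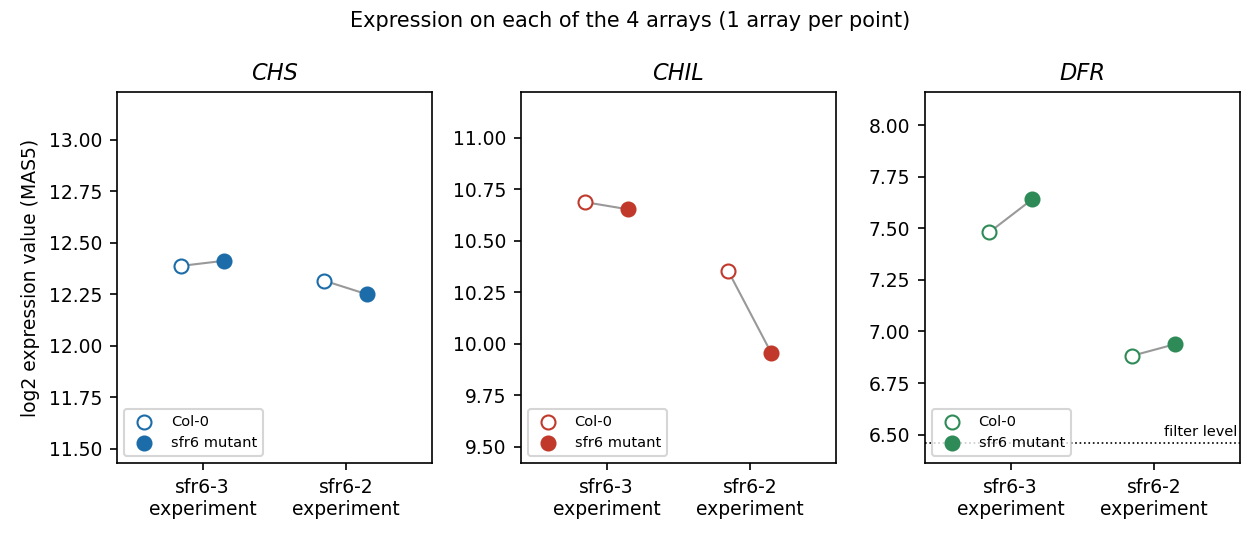
Log2 expression (vertical axis, MAS5) of CHS, CHIL and DFR on each of the 4 arrays, with open circles for Col-0, filled circles for the sfr6 mutant and a line joining the arrays of 1 experiment. Each panel spans the same length of log2 scale, and each point is 1 array with no error bar. CHS stays within 0.16, CHIL drops to 9.95 in sfr6-2, and both DFR arrays of the sfr6-2 experiment lie below both of the sfr6-3 experiment.

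The 3 members differed in the same direction between the experiments, though by little for CHS. On all 3 probe sets, both arrays of the sfr6-2 experiment read lower than both arrays of the sfr6-3 experiment, a separation that 21.2% of probe sets kept had in that direction. Between the Col-0 arrays the difference was -0.072 for CHS, -0.34 for CHIL and -0.60 for DFR. Between the mutant arrays, which also differ in allele, it was -0.16, -0.70 and -0.70 in the same order. The block term of the same limma fit, read after the values had been seen, put the mean difference at -0.65 for DFR (95% interval -1.29 to -0.0080, adjusted p = 0.213). For CHIL it was -0.52 (95% interval -0.97 to -0.060, adjusted p = 0.162) and for CHS -0.12 (95% interval -0.51 to 0.28, adjusted p = 0.772). None passed after adjustment, where 5.91% of probe sets were called lower in the sfr6-2 experiment, and the unadjusted p was 0.0299 for CHIL and 0.0476 for DFR. For DFR the difference between experiments was 1.57-fold, and 9.03% of probe sets kept had a lower value. That share was 12.3% for CHIL and 34.6% for CHS. Over all 13648 probe sets the difference between the Col-0 arrays and that between the mutant arrays correlated at 0.60, a description across probe sets of differences that share no array. What differed between the experiments is not given in the labels.

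**Figure D2:**
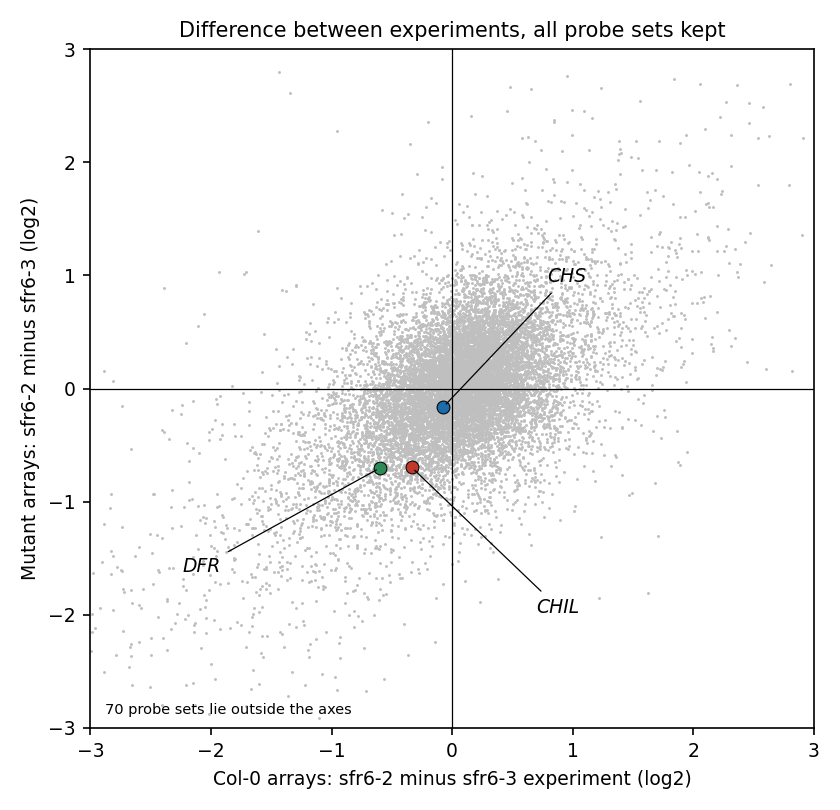
Difference between the experiments in log2 value for the Col-0 arrays (horizontal axis) and for the mutant arrays (vertical axis), with 1 grey point for each of the 13648 probe sets kept; 70 lie outside the axes. CHS, CHIL and DFR all lie below 0 on both axes, with DFR at -0.60 and -0.70.

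The ratios of the core genes sat inside the main cloud of probe sets in both alleles. In sfr6-3, 4.18% of probe sets had a smaller absolute ratio than CHS, 5.65% a smaller one than CHIL and 25.3% a smaller one than DFR. In sfr6-2 these shares were 13.3% for CHS, 66.5% for CHIL and 11.3% for DFR. At least 2-fold changed in the same direction in both alleles were 2.04% of probe sets, and none of the 3 genes was among them.

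**Figure D3:**
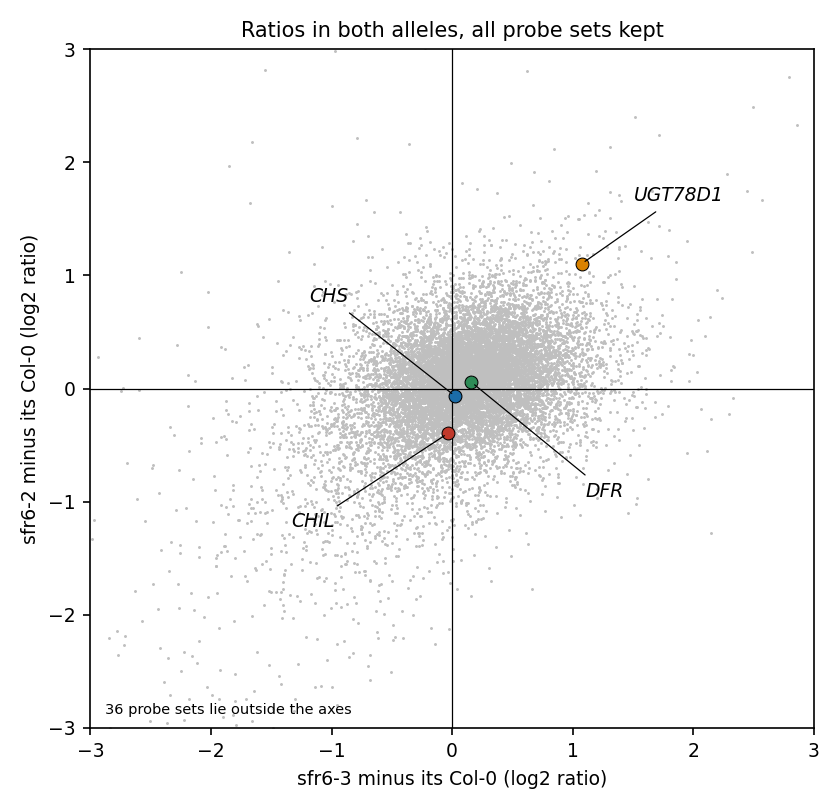
Log2 ratio of sfr6-3 to its own Col-0 (horizontal axis) against that of sfr6-2 to its own Col-0 (vertical axis), with 1 grey point for each of the 13648 probe sets kept; 36 lie outside the axes. CHS and DFR lie near the origin, CHIL at -0.035 and -0.40, and UGT78D1 at 1.07 and 1.10.

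Genes with array patterns most like those of the members were sought among 7199 named genes, by the root mean square difference over the 4 arrays after each gene was centred on its own mean. Nearest to CHS were ARA6, a Rab GTPase gene, at a log2 distance of 0.0081, AT1G72390 at 0.011, AT4G24790 at 0.012, LCD, a cysteine desulfhydrase gene, at 0.019 and AT5G52030 at 0.023. Such closeness was common for so flat a profile, since 394 genes lay within 0.1 of CHS. Nearest to CHIL were AT5G47070 at 0.023, the protein kinase gene APK1A at 0.024, AT5G57610 at 0.025, the coactivator gene KELP at 0.030 and AT1G17520 at 0.031, with 74 genes within 0.1. Nearest to DFR were AT1G18660 at 0.013, AT4G02610 at 0.032, MYC3, a bHLH transcription factor gene of jasmonate signalling, at 0.036, AT2G35840 at 0.038 and AT3G07470 at 0.042, with 59 genes within 0.1. Between the members the distance was 0.19 for CHIL and DFR, 0.23 for CHS and CHIL and 0.27 for CHS and DFR. The median distance to the named genes was 0.27 from CHS and 0.41 from CHIL. Within 0.2 of CHIL lay 562 of the named genes, and within 0.2 of DFR 529, so a distance near 0.19 was common.

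Few other genes of the pathway could be read by name. Of 95 genes listed for the pathway, its regulators and the relatives of its enzymes, 24 had a single-gene probe set or the CHS probe set, and 14 passed the filter. Of these 14, 1 was called lower, with both mutant readings under the filter level, 1 higher and 12 did not pass. The median mean ratio of the 14 was 0.12, beside 0.099 for all probe sets kept. The 10 core enzymes on the list had 4 probe sets, those of the members and of BAN, the anthocyanidin reductase that leads to the proanthocyanidins of the seed coat. BAN read between 1.299 and 4.11 on the 4 arrays, all under the filter level, and was not tested. The 8 genes of the general phenylpropanoid steps upstream of CHS, the 4 of flavonoid transport and oxidation and the 17 repressors and light or nitrogen regulators have no single-gene probe set in the annotation and were not analysed here.

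Of 17 activators, HYH, a bZIP gene that works beside HY5 in light signalling, was the 1 with a named probe set. HYH read 10.21 in Col-0 beside 10.42 in sfr6-3, and 10.09 in Col-0 beside 10.16 in sfr6-2. Its mean ratio was 0.14 (95% interval -0.31 to 0.59, limma adjusted p = 0.779), a size between those of DFR and CHIL. On the neighbouring monolignol branch, CCR2, a cinnamoyl-CoA reductase gene, had ratios of -0.51 in sfr6-3 and -0.75 in sfr6-2 (limma adjusted p = 0.308). HCT, which hands phenylpropanoid units to shikimate on the way to lignin, had ratios of -0.13 and -0.45 (limma adjusted p = 0.470). Neither passed.

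Downstream of the core steps, UGT78D1, which adds rhamnose to flavonols, rose in both alleles. It read 8.95 in Col-0 beside 10.02 in sfr6-3, and 8.68 in Col-0 beside 9.78 in sfr6-2, so both mutants lay above both Col-0 arrays. Its mean ratio was 1.09 (95% interval 0.62 to 1.56, limma adjusted p = 0.0146), an interval that does not overlap those of CHS and CHIL and overlaps that of DFR. The difference between UGT78D1 and the core genes was not tested. Among the root markers AT5G66390, a peroxidase gene, also rose in both alleles, by 0.97 and 0.87 (limma adjusted p = 0.0351). The other root markers with a probe set were lower in both alleles. PYK10, the abundant root beta-glucosidase, had ratios of -0.49 and -0.063. AT3G54580 had ratios of -0.76 and -1.28, but its mean was under the filter level and it was not tested. The log2 of the summed linear levels of the 3 root markers with a probe set, of 6 listed, mostly follows PYK10. This sum ran from 13.93 to 14.37 in Col-0 and from 13.50 to 14.35 in the mutants, and none of the listed genes read 0. The part of the root markers in the rise of UGT78D1 was not tested. The call of UGT78D1 ended after median centring (limma adjusted p = 0.0542) and without a variance trend (limma adjusted p = 0.0619). Without the block, or with 1 array left out, no probe set at all was called, so those settings cannot decide on UGT78D1. Its ratio stayed between 0.95 and 1.22 in the 14 alternatives. UGT78D2, which adds glucose to flavonols and anthocyanidins, had ratios of 0.78 in sfr6-3 and -0.0083 in sfr6-2 and did not pass. AT1G06000, another flavonol rhamnosyltransferase gene, did not pass either, with ratios of 0.48 and 0.18. AT2G22590, of the glycosyltransferase family, is the 1 gene called lower, with a mean ratio of -2.27 (limma adjusted p = 0.0457) from -0.76 in sfr6-3 and -3.77 in sfr6-2. It passed the filter only through its Col-0 arrays, at 7.02 and 8.73, while it read 6.26 in sfr6-3 and 4.96 in sfr6-2, both under the filter level. Its call therefore rests on inexact readings and on a filter that favours such a gene, and it held in 3 of 13 alternatives. Those 13 include the settings without the block or with 1 array left out, where no probe set at all was called. With Col-0 replicate 2, that of the sfr6-2 experiment, left out, its ratio stood at -1.41, and at -1.42 when readings below the filter level were set to that level. The other 4 of the 8 glycosyl- and acyltransferase genes with a probe set were under the filter.

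Relatives of the member enzymes gave 4 genes that passed the filter, of 21 listed, and none passed the test. AT4G00040, of the chalcone and stilbene synthase family, had ratios of -0.54 in sfr6-3 and 0.85 in sfr6-2. Of the DFR relatives, AT5G19440 had ratios of 0.81 and 0.42 (limma adjusted p = 0.141), AT2G23910 ratios of -0.50 and -0.44 and AT4G30470 ratios of 0.72 and -0.070. AT5G19440 was the 1 of the 4 whose 95% interval, 0.17 to 1.06, lay apart from 0.

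**Figure D4:**
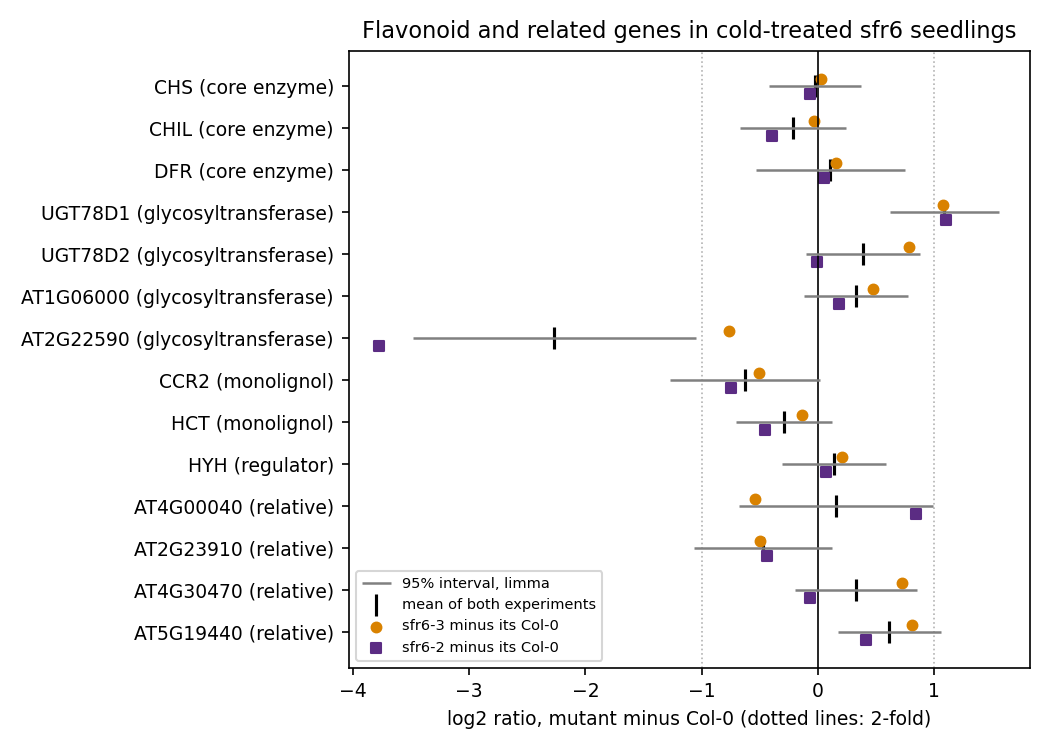
Log2 ratio of mutant to Col-0 (horizontal axis) for the 14 listed genes that passed the filter, with circles for sfr6-3, squares for sfr6-2, black ticks for the mean of both and grey bars for the 95% interval of the limma fit. The intervals of CHS, CHIL and DFR cross 0 and stay within 2-fold, while that of UGT78D1 runs from 0.62 to 1.56.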

How the data were processed

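The authors deposited log2 values from MAS5, for which the submitters' processing notes name the package affy, version 1.36.1. Of 22810 probe sets, 64 array controls were dropped. The annotation paired 13513 probe sets with 1 gene and 503 with several and left 8730 unnamed, the CHS probe set among them. Of the single-gene names, 13436 were updated through the gene table of assembly TAIR10.1. The brightest single-gene probe set stood for a listed gene. No detection calls were used, and precision is limited by there being only 4 arrays.

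Ratios were differences of log2 values, with 2-fold as threshold and no test within 1 experiment. Version 3.58.1 of limma (R 4.3.3) fitted the combined effect on all 13648 probe sets kept, named or not, with a variance trend. The fit had 1 residual and 10.6 prior degrees of freedom. On data simulated with noise from the fitted model and the same effect in both alleles, its intervals held the true value about as often as they should. Because the noise came from the model itself, this does not vouch for the intervals on the real arrays. The share of false calls in the simulation was mostly above the 0.05 aimed at. The block for experiment follows the design, in which every mutant had a Col-0 of its own.

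The members, lists and tests were chosen with earlier results of these data known. Named genes are the members, listed genes that passed the test or else up to 4 a list by size of ratio, and the 5 nearest patterns for each member. Protein and promoter sequences were not analysed here. Alternatives were other normalizations, filters, offsets, thresholds, control arrays and variance models, and leaving out each array.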

Additional observations from a re-analysis of the deposited data

Results flagged for a closer look

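Of the 14 pathway genes that passed the filter, 4 had ratios of opposite sign in the alleles, as 36.94% of all probe sets kept did, and each was marked for that reason. No difference between alleles was tested, because each allele was measured on 1 array. CHS had ratios of 0.025 in sfr6-3 and -0.066 in sfr6-2, both smaller than the gap between its Col-0 arrays. Taken relative to the median probe set of each comparison, CHS stood at -0.091 and -0.14, with the same sign in both alleles. UGT78D2 had ratios of 0.78 in sfr6-3 and -0.0083 in sfr6-2. AT4G00040 had ratios of -0.54 in sfr6-3 and 0.85 in sfr6-2. AT4G30470 had ratios of 0.72 in sfr6-3 and -0.070 in sfr6-2.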

How the results depend on the processing

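CHS, CHIL and DFR passed in none of the alternatives, with adjusted p ranging over 0.852 to 1.00 for CHS in 13, 0.555 to 1.00 for CHIL in 14 and 0.855 to 1.00 for DFR in 13. The mean ratio turned to 0.064 for CHS after quantile normalization and to -0.032 for DFR after cyclic loess normalization. With each array left out in turn, and so without the block, the ratio ran from -0.10 to 0.061 for CHS, -0.56 to 0.13 for CHIL and -0.24 to 0.46 for DFR. It gave -0.14 to 0.80 for AT1G06000, -0.40 to 0.71 for AT4G00040, -1.09 to 0.15 for AT2G23910 and -0.0092 to 0.66 for AT4G30470, and in every case limma called 0 probe sets, so 0 pathway genes in either direction, with 523 to 1062 at an unadjusted p below 0.05. Without the replicate block, limma called 0 probe sets and 0 pathway genes, while 788 had an unadjusted p below 0.05 (2319 in the fit with the block), and the adjusted p was 0.992 for CHS, 0.913 for CHIL and 0.967 for DFR. The difference between experiments was run under other normalizations, filters, log scales, features and the variance model, 8 settings for CHS and DFR and 9 for CHIL, with no array left out. In these it was -0.21 to -0.087 for CHS, -0.53 to -0.49 for CHIL and -0.68 to -0.56 for DFR, and passed in none. The cause of these changes was not tested.

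The single ratios of CHIL and DFR depended on the Col-0 array. Against the Col-0 of the other experiment sfr6-3 stood at 0.30 for CHIL and 0.76 for DFR, and sfr6-2 at -0.73 for CHIL and -0.54 for DFR, with 1080 probe sets at least 2-fold lower and 930 higher in sfr6-2. Against the mean of both Col-0 arrays CHIL stood at 0.13 in sfr6-3 and -0.56 in sfr6-2, DFR at 0.46 and -0.24, and 343 probe sets were higher in sfr6-3.

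Over all probe sets the combined test called 401 lower and 120 higher. It called 61 higher after cyclic loess, 35 after median centring, which moves the median ratio of sfr6-3 by 0.11, 31 without the filter, 43 with the filter at the 60th percentile and 42 without the variance trend. It called 209 lower without the filter, 246 with the stricter filter, 245 with only single-gene probe sets, where CHS has no value, and 200 without the trend. The pathway gene called lower, AT2G22590, was lost (0 genes) after cyclic loess and median centring, without the filter, with the 20th percentile added before logs and without the trend. With the filter at the 60th percentile AT2G22590 was removed and not tested. The 1 called higher, UGT78D1, was lost (0 genes) after median centring and without the trend.

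At least 2-fold in sfr6-3 were 552 lower and 523 higher, and in sfr6-2 499 and 241. The higher count of sfr6-3 was 306 after cyclic loess, 344 after median centring, 242 with the stricter filter and 338 with the 20th percentile added, and that of sfr6-2 was 94 with the stricter filter and 159 with the 20th percentile added. Without the filter the counts were 2374 and 2632 in sfr6-3 and 2246 and 2523 in sfr6-2, and with only single-gene probe sets, fewer features, 277 and 270, and 258 and 120. At 3-fold they were 192 and 66, and 181 and 36, and at 1.5-fold 1349 and 2087, and 1183 and 1258.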
